A study of Mus musculus with 6 samples.

Results

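The 7 genes described here encode enzymes of phenylalanine and tyrosine breakdown together with the recycling of tetrahydrobiopterin, the cofactor that aromatic amino acid hydroxylation consumes. They are Pcbd1, Qdpr, Tat, Hpd, Hgd, Gstz1 and Fah, listed in the order in which they act, and they were taken by symbol from 48432 genes in the deposited table. All 7 had counts in every library and all 7 passed the filter on low counts, as did 16533 genes in all. The data are liver RNA sequencing libraries from mice of 10 weeks of age in 2 groups, which address the liver transcripts that depend on Klf15, a Kruppel-like transcription factor. The Li-KO group (3 libraries) is a liver-specific Klf15 knockout. The control group (Ctl, 3 libraries) carried Albumin-Cre, a transgene that uses the albumin promoter to express Cre recombinase in hepatocytes. The labels do not give the floxed allele or the exon removed, do not state whether Li-KO mice carry the same Cre transgene, and do not give the sex, the feeding state or the time of day. Nor is it stated whether each library is a different mouse: the p-values below rest on library-to-library spread, which may be technical.

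The liver is the main site of phenylalanine and tyrosine breakdown. Phenylalanine is first hydroxylated to tyrosine, and the pterin spent in that reaction is dehydrated by Pcbd1 and reduced again by Qdpr. Tat then removes the amino group of tyrosine, Hpd turns the resulting 4-hydroxyphenylpyruvate into homogentisate, Hgd opens the ring of homogentisate, Gstz1 isomerises maleylacetoacetate, and Fah splits fumarylacetoacetate into fumarate and acetoacetate. In humans, inherited loss of TAT, HPD or FAH causes forms of tyrosinemia and loss of HGD causes alkaptonuria. Nitisinone, the drug used in the hereditary tyrosinemia of FAH deficiency, inhibits the HPD enzyme.

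The knocked-out gene checked the labels. Klf15 was at 54.3, 41.6 and 51.8 CPM (counts scaled to a common library total by the TMM method) in Li-KO replicates 0, 1 and 2, against 345, 174 and 196 CPM in Ctl replicates 0, 1 and 2, a log2 fold change of -2.28 ± 0.26 (SE; edgeR adjusted p = 0.00275). The library totals ran from 30132496 to 42782324 counts, and the lowest count of any of the 7 genes in any library was 2652. In whole liver, fewer cells of a type and less RNA per cell cannot be told apart. Hepatocyte markers were present: the summed level of 5 measured markers of 8 listed was 15199 to 17881 CPM in Li-KO and 13315 to 17482 CPM in Ctl, with Alb and Cyp2e1 skipped by the authors' software and Tf not matched to a gene. Summed markers of cholangiocytes, Kupffer cells, lymphocytes, neutrophils, sinusoidal endothelium and of stellate cells with fibroblasts overlapped between the groups. Those of carried-over tissue overlapped as well, and among them Prss2 and Cpb1 were at 0 in all 6 libraries. Li-KO replicate 0 stood apart in the cholangiocyte sum, at 152 CPM (Spp1 alone at 144 CPM) against 33.5 to 65.4 CPM elsewhere. Its lymphocyte sum was 5.9 CPM, against 1.22 to 2.3 CPM elsewhere. The highest Kupffer and neutrophil sums were in Ctl replicate 2. The part of these libraries' make-up in the results below was not tested. Erythroid markers did not overlap, at 271 to 529 CPM in Li-KO and 671 to 727 CPM in Ctl, and their part in the results below was not tested. Among 6 cholangiocyte markers, Sox9 fell (log2 fold change -2.39 ± 0.24, adjusted p = 0.00153), while Krt19, Krt7, Epcam, Spp1 and Cftr had log2 fold changes of 0.17 to 1.36 that did not pass (list median 0.80). Among the 5 measured hepatocyte markers (list median 0.24), Asgr2 rose (log2 fold change 0.59 ± 0.11, edgeR adjusted p = 0.0162), where 6.11% of all genes tested did. Ttr, Asgr1, Hnf4a and Apoa1 had log2 fold changes of 0.56, 0.24, -0.07 and -0.29 that did not pass. The call of Asgr2 ended without Li-KO replicate 1, Ctl replicate 1 or Ctl replicate 2 (highest adjusted p 0.0757).

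The promoters of the 4 genes that changed are shown because 3 of the genes fell and 1 rose in the same libraries. Each stretch is the 250 bases before the RefSeq start site on the gene's own strand, 5′ to 3′, in GRCm38.p6 (the mm10 assembly). Capitals mark 3 short motifs searched on both strands, CACCC and GGGCGG, which are the kinds of box that Kruppel-like factors are known to bind, and CCAAT. The stretches are chr5:123182724-123182973 (minus strand) for Hpd, chr12:87146915-87147164 (plus strand) for Gstz1, chr7:84605943-84606192 (minus strand) for Fah and chr16:37579903-37580152 (plus strand) for Hgd. The RefSeq start of Fah lies 780 bases inside the annotated gene start.
Hpd: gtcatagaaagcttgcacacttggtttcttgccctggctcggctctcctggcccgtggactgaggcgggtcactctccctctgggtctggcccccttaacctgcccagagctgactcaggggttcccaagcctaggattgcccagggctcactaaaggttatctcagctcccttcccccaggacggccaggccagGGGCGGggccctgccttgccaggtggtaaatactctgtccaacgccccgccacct
Gstz1: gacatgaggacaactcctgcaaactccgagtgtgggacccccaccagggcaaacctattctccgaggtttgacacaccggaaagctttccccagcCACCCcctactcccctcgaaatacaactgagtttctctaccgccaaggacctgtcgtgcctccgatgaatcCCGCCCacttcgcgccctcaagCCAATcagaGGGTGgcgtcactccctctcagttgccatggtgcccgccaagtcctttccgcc
Fah: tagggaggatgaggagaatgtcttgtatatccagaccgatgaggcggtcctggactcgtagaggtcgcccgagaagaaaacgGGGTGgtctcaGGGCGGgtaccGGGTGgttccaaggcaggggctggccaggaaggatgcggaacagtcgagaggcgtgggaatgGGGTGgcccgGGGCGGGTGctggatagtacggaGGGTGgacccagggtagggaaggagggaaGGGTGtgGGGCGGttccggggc
Hgd: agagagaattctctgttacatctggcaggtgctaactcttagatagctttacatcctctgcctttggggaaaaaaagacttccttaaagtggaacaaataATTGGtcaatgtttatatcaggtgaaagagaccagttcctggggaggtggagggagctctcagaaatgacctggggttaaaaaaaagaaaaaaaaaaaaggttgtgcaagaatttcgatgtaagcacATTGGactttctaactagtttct
Over windows that also hold the 50 bases after the start, Hpd and Hgd had 0 CACCC matches, the first promoter of Gstz1 had 3 and Fah had 8. GGGCGG matched 1 time in Hpd, 0 times in Hgd, 1 time in Gstz1 and 5 times in Fah. CCAAT matched 0 times in Hpd, 2 times in Hgd, 1 time in Gstz1 and 0 times in Fah. In Fah, CACCC and GGGCGG matches shared 4 bases and were counted under both motifs. The 7 genes have 8 such windows in the table, since Gstz1 has a second start, and CACCC was in 6 of them, GGGCGG in 6 and CCAAT in 5. Of all 32851 RefSeq windows, 57.5% held CACCC, 35.7% held GGGCGG and 37.4% held CCAAT. The gene with the largest decrease (Hpd) and the gene that rose (Hgd) thus had no CACCC match in this window, while the 2 other genes that fell had several. Pcbd1, Qdpr and Tat, which are not among the 4 genes that changed, each had 1 match. The stretches shown were 62.8% G or C for Hpd, 59.2% for Gstz1, 64.4% for Fah and 38.8% for Hgd. A match describes letters only.

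Along the pathway, transcripts of the steps after Tat changed and the changes had both signs. Of the 7 genes, 3 fell in Li-KO liver (Hpd, Gstz1 and Fah) and 1 rose (Hgd), while Pcbd1, Qdpr and Tat did not pass an adjusted p of 0.05. Among all genes tested, 12.0% changed, of which 5.90% of all genes fell and 6.11% rose. The median log2 fold change was -0.65 over the 7 genes and -0.01 over all genes tested. Li-KO and Ctl values were fully separated in 6 of the 7 genes, against 35.2% of all genes tested. The gene without separation was Tat. With other methods on all 6 libraries, the number of the 7 that changed was 4 with RLE scaling (12.0% of all genes), 5 with no count filter (9.05%), 6 with DESeq2 (19.0%), 4 with limma-voom (12.1%), 4 with limma on log2(FPKM + 1) or log2(FPKM + 0.1) (10.2% and 10.7%), 3 with limma on FPKM unfiltered (3.21%), 5 with a replicate block (11.9%) and 4 with skipped genes kept (12.0%). It was 3 without Li-KO replicate 0 (7.26%), 3 without Li-KO replicate 1 (2.79%), 4 without Li-KO replicate 2 (14.9%), 4 without Ctl replicate 0 (7.70%), 3 without Ctl replicate 1 (2.53%) and 3 without Ctl replicate 2 (3.78%). Hpd, Gstz1 and Fah were among the genes that fell in each of these fits. With limma on log2(FPKM + 1) or log2(FPKM + 0.1), the 4 were Qdpr, Hpd, Gstz1 and Fah, all lower, and Hgd did not pass.

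**Figure D1:**
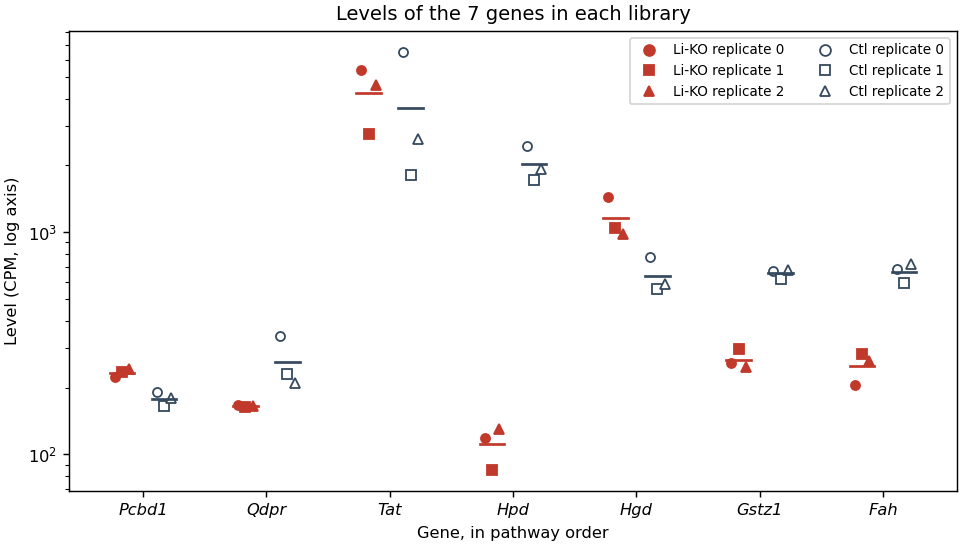
Level of each gene in each library, in CPM on a log axis, with genes in pathway order, 3 Li-KO libraries (filled) left of 3 Ctl libraries (open) and a bar at each group mean. Hpd has no overlap between 85.2 to 130 CPM in Li-KO and 1713 to 2440 CPM in Ctl, whereas Tat spans 2761 to 5390 CPM in Li-KO and 1815 to 6477 CPM in Ctl.

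Neither cofactor recycling gene passed the test, with Pcbd1 at higher and Qdpr at lower values in Li-KO. Pcbd1 (ENSMUSG00000020098.6, chromosome 10, 61089331 to 61094324, plus strand) encodes pterin-4a-carbinolamine dehydratase, which releases water from the spent pterin. Its level was 222, 235 and 242 CPM in Li-KO replicates 0, 1 and 2, against 190, 165 and 179 CPM in Ctl replicates 0, 1 and 2. Every Li-KO value lay above every Ctl value, but the log2 fold change of 0.39 ± 0.11 did not pass (adjusted p = 0.0587). Among the alternatives it passed with DESeq2 alone (adjusted p = 0.0298), and over all other alternatives its adjusted p was up to 0.186.

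Qdpr (ENSMUSG00000015806.12, chromosome 5, 45434021 to 45450236, minus strand) encodes quinoid dihydropteridine reductase, which completes the recycling. It had 167, 164 and 166 CPM in Li-KO replicates 0, 1 and 2, and 340, 231 and 209 CPM in Ctl replicates 0, 1 and 2. The Li-KO values were nearly the same as one another and all below Ctl, where replicate 0 stood above replicates 1 and 2. The log2 fold change of -0.65 ± 0.18 missed the threshold (adjusted p = 0.052), and without Ctl replicate 0 it was -0.42 with an adjusted p of 0.0868. Qdpr passed in 5 of 9 alternatives that kept all libraries, with adjusted p of 0.00936 to 0.0834 over the 9. These passes include limma on log2(FPKM + 1) and log2(FPKM + 0.1) (adjusted p of 0.048 and 0.0455). Both used the Qdpr FPKM of Li-KO replicate 2, which carries a failed-estimate mark. Qdpr passed in 0 of 6 fits that left out a library, with adjusted p of 0.0597 to 0.156.

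Tat (ENSMUSG00000001670.13, chromosome 8, 109990437 to 109999803, plus strand), tyrosine aminotransferase, is the textbook glucocorticoid-induced enzyme of the liver. It was the most variable of the 7. Its level was 5390, 2761 and 4591 CPM in Li-KO replicates 0, 1 and 2, against 6477, 1815 and 2643 CPM in Ctl replicates 0, 1 and 2. Ctl replicate 0 was the highest of all 6 libraries and Ctl replicate 1 the lowest, so that the Li-KO values lay inside the Ctl range. The coefficient of variation was 31.7% in Li-KO and 68.2% in Ctl, the widest of the 7 genes in each group. The log2 fold change was 0.22 ± 0.45 (adjusted p = 0.789). Without Ctl replicate 0 it was 0.93 (adjusted p = 0.105), and without Ctl replicate 1 it was -0.08 (adjusted p = 0.936).

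Ctl replicate 0, in which Tat was highest, was also the highest Ctl library for most genes of a glucocorticoid-induced list. In this list of 12 glucocorticoid-induced liver genes, chosen with earlier results known, 11 had their highest Ctl value in Ctl replicate 0. So did 5 of the 7 pathway genes (Pcbd1, Qdpr, Tat, Hpd and Hgd) and 36.0% of all genes tested. Pck1, of gluconeogenesis, had 5582, 3572 and 5343 CPM in Li-KO replicates 0, 1 and 2, against 6436, 1840 and 2963 CPM in Ctl replicates 0, 1 and 2. Fkbp5, a glucocorticoid-induced immunophilin, had 62.0, 106 and 286 CPM in Li-KO replicates 0, 1 and 2, against 318, 97.2 and 112 CPM in Ctl replicates 0, 1 and 2. Pck1 and Fkbp5 both followed the order of Tat within the Ctl group. Within Li-KO, Pck1 followed the order of Tat as well, while Fkbp5 was highest in replicate 2 and lowest in replicate 0. Neither passed the test (adjusted p of 0.603 and 0.849), and the part of this library's state in the Tat result was not tested. Of the 12 genes, 1 rose and 1 fell (median log2 fold change 0.12), where 6.11% and 5.90% of all genes tested did. Lcn2, also an acute phase gene, rose (log2 fold change 3.18 ± 0.44, adjusted p = 0.00603), and Tdo2, the first enzyme of tryptophan breakdown, fell (log2 fold change -2.14 ± 0.22, adjusted p = 0.00179).

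Hpd (ENSMUSG00000029445.13, chromosome 5, 123171807 to 123182727, minus strand), 4-hydroxyphenylpyruvate dioxygenase, had the largest change of the 7. It was counted 3650, 2652 and 5367 times in Li-KO replicates 0, 1 and 2, against 101831, 63671 and 72960 times in Ctl replicates 0, 1 and 2. As a level this was 118, 85.2 and 130 CPM in Li-KO and 2440, 1713 and 1935 CPM in Ctl, in the same order of replicates. Transcripts in Li-KO were at 5.47% of Ctl, an 18.3-fold decrease. The edgeR log2 fold change was -4.19 ± 0.23, and the adjusted p was 0.00024; Hpd ranked 3 by p and 30 by lowest fold change among all genes tested. In the 6 fits without a library it stayed between -4.33 and -4.03. The annotated span of Psmd9, a proteasome assembly gene on the opposite strand, encloses Hpd without sharing an exon with it. Psmd9 rose (log2 fold change 0.75 ± 0.17, adjusted p = 0.0276), with 2331, 1805 and 2405 counts in Li-KO replicates 0, 1 and 2 and 1909.1, 1305 and 1246 in Ctl replicates 0, 1 and 2. Its call ended without Li-KO replicate 0 or 1 or Ctl replicate 1 or 2 (highest adjusted p 0.108), and with limma on unfiltered FPKM (adjusted p = 0.0778).

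Hgd (ENSMUSG00000022821.13, chromosome 16, 37580153 to 37632020, plus strand), homogentisate dioxygenase, acts on the product of Hpd and moved the other way. It had 1443, 1042 and 985 CPM in Li-KO replicates 0, 1 and 2, and 777, 554 and 584 CPM in Ctl replicates 0, 1 and 2. All Li-KO values were above all Ctl values, and replicate 0 was the highest in each group. The log2 fold change was 0.86 ± 0.20, a 1.81-fold rise with an adjusted p of 0.0321. This call was the least stable of the 4: it ended without Li-KO replicate 0 (adjusted p = 0.0589), Li-KO replicate 1 (0.084), Ctl replicate 1 (0.117) or Ctl replicate 2 (0.109), and in the 3 fits on FPKM (adjusted p up to 0.115). The log2 fold change was 0.69 to 1.02 over the 6 fits without a library.

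The last 2 enzymes fell by similar amounts. Gstz1 (ENSMUSG00000021033.10, chromosome 12, 87147165 to 87164723, plus strand), maleylacetoacetate isomerase and a zeta-class glutathione transferase, had 257, 297 and 247 CPM in Li-KO replicates 0, 1 and 2, against 668, 614 and 677 CPM in Ctl replicates 0, 1 and 2. Its log2 fold change was -1.29 ± 0.13, which is 40.9% of the Ctl level (adjusted p = 0.00165). Both groups were tight and far apart. Exons of Gstz1 overlap exons of Pomt2 and of the antisense gene Gm6566 on the opposite strand. Since no source used here gives the strand setting of the counting, fragments of the overlap cannot be told apart. Pomt2 had 1383 to 1833 counts in Li-KO and 1604 to 2018 counts in Ctl, fewer than Gstz1 in each library, and did not pass the test (log2 fold change -0.05 ± 0.11, adjusted p = 0.806).

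Fah (ENSMUSG00000030630.16, chromosome 7, 84585159 to 84606722, minus strand), fumarylacetoacetate hydrolase, had 206, 284 and 264 CPM in Li-KO replicates 0, 1 and 2, and 683, 592 and 720 CPM in Ctl replicates 0, 1 and 2. The groups did not overlap, with Li-KO at 37.8% of Ctl. The log2 fold change was -1.40 ± 0.16 and the adjusted p was 0.00275. Hpd, Gstz1 and Fah kept their calls in all 15 alternatives run, with the highest adjusted p at 0.00932 for Hpd, 0.0142 for Gstz1 and 0.0241 for Fah, all with limma on unfiltered FPKM.

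**Figure D2:**
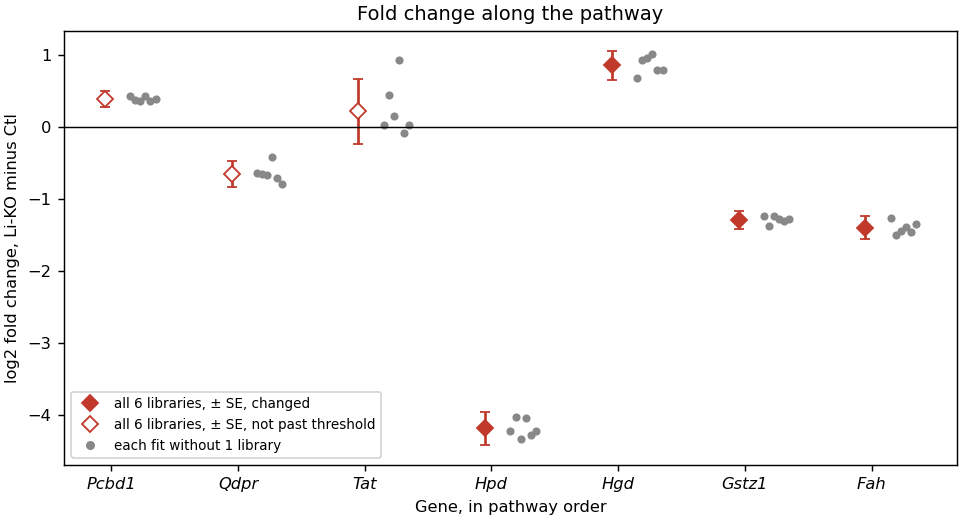
Log2 fold change (Li-KO minus Ctl) of each gene in pathway order, from edgeR on all 6 libraries with its SE (diamonds, filled where the gene changed) and from each of the 6 fits without 1 library (grey dots). Hpd sits at -4.19, Gstz1 and Fah at -1.29 and -1.40, and Hgd at 0.86, while the dots of Tat run from -0.08 to 0.93.

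Levels of different genes were compared in FPKM, the authors' values per kilobase of transcript. In Li-KO the mean levels were 1330 ± 415 FPKM for Tat, 520 ± 111 FPKM for Hgd, 250 ± 14.0 FPKM for Pcbd1, 121 ± 12.4 FPKM for Gstz1, 117 ± 19.4 FPKM for Fah, 107 ± 3.13 FPKM for Qdpr and 55.9 ± 12.0 FPKM for Hpd (SD, n = 3 libraries). Fah overlapped both Gstz1 and Qdpr, which did not overlap each other, and the other neighbours in this order did not overlap. The FPKM of Qdpr in Li-KO replicate 2 carries a failed-estimate mark in the table. In Ctl the means were 1165 ± 812 FPKM for Tat, 961 ± 238 FPKM for Hpd, 312 ± 33.8 FPKM for Fah, 301 ± 18.2 FPKM for Gstz1, 295 ± 58.9 FPKM for Hgd, 192 ± 15.6 FPKM for Pcbd1 and 185 ± 44.6 FPKM for Qdpr (SD, n = 3 libraries). There Tat overlapped Hpd, the trio of Fah, Gstz1 and Hgd overlapped, and Pcbd1 overlapped Qdpr. Hpd thus ranked 7 in each Li-KO library and 1 or 2 in each Ctl library, and Hgd ranked 2 in each Li-KO library and 3 or 5 in each Ctl library.

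As a share of the summed FPKM of the 7 genes, Hpd held 1.99%, 2.14% and 2.58% in Li-KO replicates 0, 1 and 2, against 25.9%, 31.5% and 29.0% in Ctl replicates 0, 1 and 2. Hgd held 22.1%, 23.5% and 17.1% in Li-KO and 7.60%, 10.1% and 9.07% in Ctl, in the same order. Tat held 43.3% to 57.1% in Li-KO and 22.9% to 43.8% in Ctl. Shares add up to a fixed total, so each depends on the levels of the other genes.

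**Figure D3:**
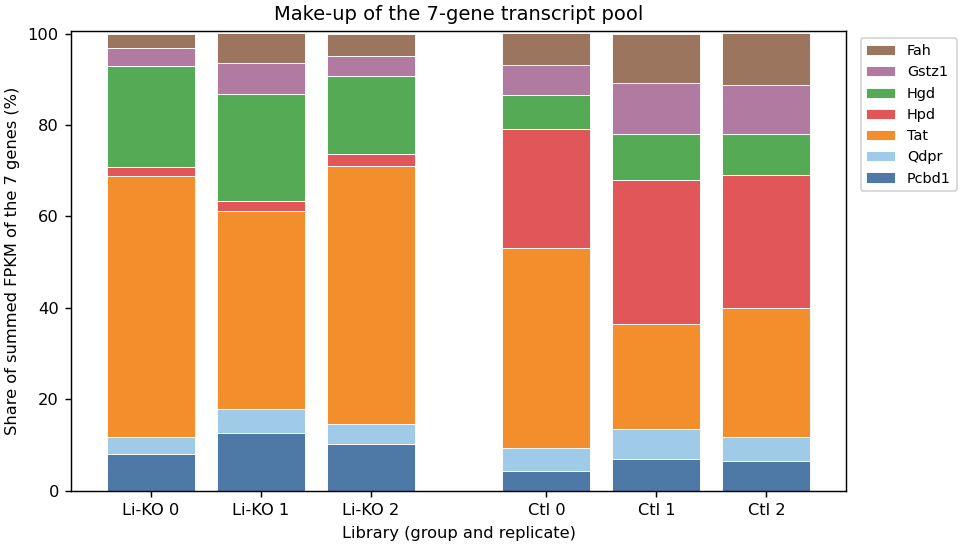
Share of each gene (%) in the summed FPKM of the 7 genes, as stacked bars for the 3 Li-KO libraries and, right of them, the 3 Ctl libraries. The Hpd segment is 1.99% to 2.58% in Li-KO and 25.9% to 31.5% in Ctl, and the Hgd segment is 17.1% to 23.5% in Li-KO and 7.60% to 10.1% in Ctl.

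Ratios within a library do not depend on the scaling between libraries. The FPKM ratio of Hgd, which uses homogentisate, to Hpd, which makes it, was 11.1, 11.0 and 6.63 in Li-KO replicates 0, 1 and 2, and 0.294, 0.321 and 0.313 in Ctl replicates 0, 1 and 2. The ratio of Gstz1 to Fah was 1.21, 1.04 and 0.905 in Li-KO and 0.929, 1.03 and 0.951 in Ctl. The first ratio separated the groups widely, and the second stayed near 1 in all 6 libraries. Fah itself fell (edgeR log2 fold change -1.40), so a ratio to it raises the log2 change of every gene by the same amount. Relative to Fah, the mean log2 ratio changed by -2.67 for Hpd, 2.24 for Hgd, 1.81 for Pcbd1, 1.79 for Tat, 0.67 for Qdpr and 0.11 for Gstz1 (Li-KO minus Ctl). Qdpr, at lower values in Li-KO, thus had a positive ratio change. In exact two-sided permutation tests over the 6 libraries p was 0.1 for the first 5 of these ratios, the smallest p that 3 against 3 libraries can give, and 0.6 for Gstz1, with adjusted values of 0.12 and 0.6 over the 6 ratios.

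The synthesis of tetrahydrobiopterin was read from 5 genes (median log2 fold change 0.42). Of these, 1 rose and 1 fell, where 6.11% and 5.90% of all genes tested did. Gchfr, the regulatory protein through which tetrahydrobiopterin inhibits and phenylalanine stimulates GTP cyclohydrolase, fell. It had 12.1, 14.4 and 14.5 CPM in Li-KO replicates 0, 1 and 2, against 70.3, 50.1 and 58.9 CPM in Ctl replicates 0, 1 and 2, a log2 fold change of -2.13 ± 0.16 (adjusted p = 0.000626). Gch1, the cyclohydrolase that it binds, was at 176 ± 25.2 CPM in Li-KO and 132 ± 9.71 CPM in Ctl (SD, n = 3 libraries each) and did not pass in edgeR (adjusted p = 0.0815). Spr, sepiapterin reductase, rose and averaged 102 ± 5.49 CPM in Li-KO and 68.5 ± 9.35 CPM in Ctl (adjusted p = 0.0276 in edgeR). The call of Spr ended without Li-KO replicate 0 or 1 or Ctl replicate 1 or 2 (highest adjusted p 0.106), and with limma on unfiltered FPKM (adjusted p = 0.0705). Pcbd2, the paralog of Pcbd1, was at 13.8 ± 0.797 CPM in Li-KO and 9.63 ± 0.447 CPM in Ctl (adjusted p = 0.0509 in edgeR), and Pts did not pass (adjusted p = 0.216).

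Of 6 plasma membrane carriers of aromatic amino acids, 2 fell (median log2 fold change -0.35), where 5.90% of all genes tested did. Slc43a1, a carrier of large neutral amino acids, had 33, 0 and 18 counts in Li-KO replicates 0, 1 and 2, against 535, 450 and 620 counts in Ctl replicates 0, 1 and 2. Its log2 fold change was -4.78 ± 0.72 (adjusted p = 0.00775), and it was -5.81 to -4.23 over the 6 fits without a library. Over the methods run on all 6 libraries the value ranged from -6.04 with limma-voom to -2.20 with limma on log2(FPKM + 1), and the gene passed in each of these fits. Slc16a10, an exporter of aromatic amino acids, had 160, 122 and 139 CPM in Li-KO replicates 0, 1 and 2, against 209, 236 and 207 CPM in Ctl replicates 0, 1 and 2 (log2 fold change -0.63 ± 0.13, adjusted p = 0.0244). Its call ended without Li-KO replicate 1, Ctl replicate 1 or Ctl replicate 2 (highest adjusted p 0.109). Slc3a2, Slc7a5, Slc7a8 and Slc43a2 did not pass, with log2 fold changes of -0.40, -0.30, -0.24 and 0.42.

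Downstream of Fah, 3 of 7 genes that handle fumarate, malate or acetoacetate rose (median log2 fold change 0.50), against 6.11% of all genes tested. Fh1, fumarase, had 723, 621 and 574 CPM in Li-KO replicates 0, 1 and 2, against 354, 217 and 262 CPM in Ctl replicates 0, 1 and 2 (log2 fold change 1.20 ± 0.20, adjusted p = 0.01). Bdh1, which interconverts acetoacetate and 3-hydroxybutyrate, averaged 275 ± 23.5 CPM in Li-KO and 167 ± 33.0 CPM in Ctl (edgeR adjusted p = 0.029), and Mdh2, mitochondrial malate dehydrogenase, averaged 236 ± 22.6 CPM in Li-KO and 162 ± 19.2 CPM in Ctl (edgeR adjusted p = 0.0353). The call of Bdh1 ended without Li-KO replicate 0 or 1 or Ctl replicate 0 or 1, and that of Mdh2 without Li-KO replicate 1 or 2 or Ctl replicate 1 or 2 (highest adjusted p 0.0946 and 0.125). Bdh1 also lost its call with limma on unfiltered FPKM (adjusted p = 0.078), and Mdh2 with the replicate block and in the 3 fits on FPKM (adjusted p up to 0.116).

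Among 10 paralogs and related enzymes, 2 rose and 1 fell (median log2 fold change 0.30), where 6.11% and 5.90% of all genes tested did. Got1, an aspartate aminotransferase, had 782, 788 and 682 CPM in Li-KO replicates 0, 1 and 2, against 827, 141 and 292 CPM in Ctl replicates 0, 1 and 2; it missed the threshold (adjusted p = 0.326). As for Tat, Ctl replicate 0 was the highest library. Hpdl, the paralog of Hpd, was under 2 CPM in all 6 libraries. Ddt, a tautomerase, fell (log2 fold change -0.93 ± 0.19, adjusted p = 0.0198), its relative Mif rose (log2 fold change 0.65 ± 0.12, adjusted p = 0.0155), and so did Fahd2a, of the same fold family as Fah (log2 fold change 0.72 ± 0.14, adjusted p = 0.0189). Mif has many processed pseudogenes, so its counts are uncertain. These calls ended without Ctl replicate 1 for all of Ddt, Mif and Fahd2a, without Ctl replicate 2 for Ddt and Mif, and without Li-KO replicate 1 for Ddt and Fahd2a, and the highest adjusted p of these fits was 0.0724 for Ddt, 0.0707 for Mif and 0.0839 for Fahd2a. Ddt and Mif also lost their calls with limma on unfiltered FPKM (adjusted p of 0.0838 and 0.078).

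Of 9 transcription factors known to act on liver genes of amino acid breakdown, 0 passed the adjusted threshold in edgeR, 3 had an unadjusted p under 0.05 and 3 passed with DESeq2 (median log2 fold change -0.15). Of all genes tested, 29.4% had an unadjusted p under 0.05 and 19.0% passed with DESeq2. By either count the 3 were Foxa1, Creb1 and Ppargc1a, with edgeR log2 fold changes of -1.13 ± 0.36, -0.49 ± 0.14 and 1.27 ± 0.39 and adjusted p of 0.074, 0.0584 and 0.0678. Nr3c1, the glucocorticoid receptor, had 187, 219 and 228 CPM in Li-KO replicates 0, 1 and 2 and 238, 261 and 246 CPM in Ctl replicates 0, 1 and 2 (adjusted p = 0.248).

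**Figure D4:**
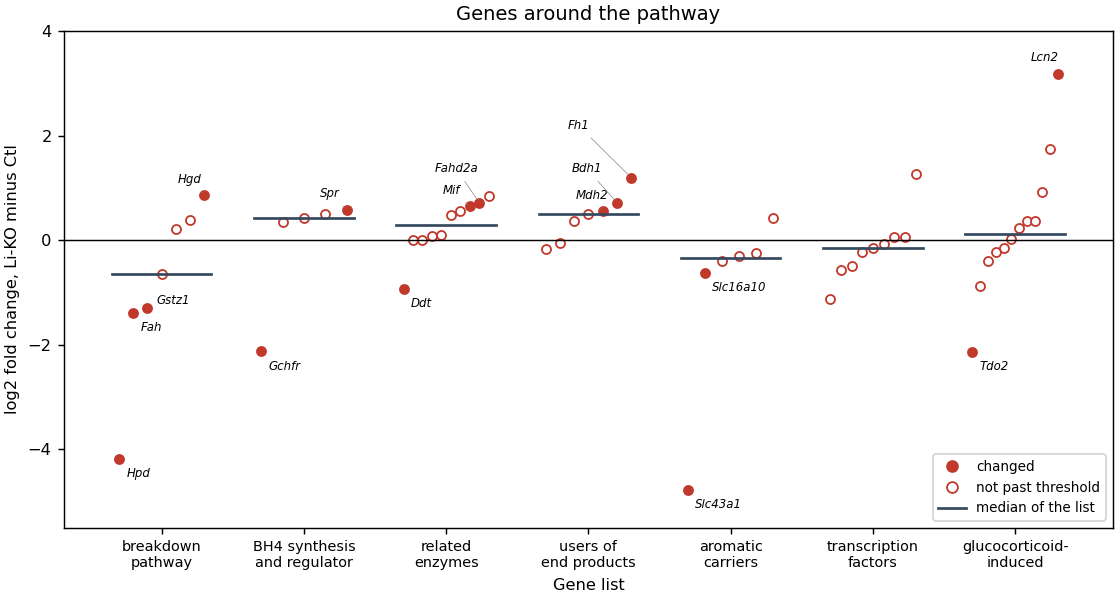
Log2 fold change (Li-KO minus Ctl) of each tested gene in the pathway and in 6 lists around it, with changed genes filled and named, other genes open and a line at the median of each list (BH4 is tetrahydrobiopterin). Hpd at -4.19, Slc43a1 at -4.78 and Gchfr at -2.13 are the lowest points of their lists.

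Genes with profiles over the 6 libraries most like those of the 3 genes that fell were sought among 8363 genes with a mean of at least 10 CPM. Likeness was the root mean square difference of log2(CPM + 0.5), with each gene centred on its own Ctl mean. For Hpd the most alike genes were Adora1, Cyp4a32 and Ggt6, at differences of 0.12, 0.35 and 0.41. Their levels were 0.353 to 2.61 CPM in Li-KO and 17.8 to 32.3 CPM in Ctl. They thus reached the required mean of 10 CPM through Ctl alone. Their edgeR log2 fold changes were -4.79, -4.84 and -4.10, against -4.19 for Hpd. The genes were picked by likeness over these same 6 libraries, so large falls follow from the choice. The offset of 0.5 CPM makes falls to such low levels smaller in these profiles. Cyp4a32 belongs to a family of near-identical copies, so its counts are uncertain. The genes most like Gstz1 were Aldh7a1, Bckdhb and Acadsb, at differences of 0.05, 0.09 and 0.11. For Fah they were Acadsb, Acy1 and Aldh7a1, at 0.12, 0.14 and 0.14. Acadsb and Aldh7a1 were thus near both genes, and Aldh7a1 had 235, 256 and 235 CPM in Li-KO replicates 0, 1 and 2 against 626, 549 and 620 CPM in Ctl replicates 0, 1 and 2.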

How the data were processed

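Total RNA was isolated from liver and made into stranded total RNA libraries, per the labels' protocols, which can hold unspliced RNA. The submitters' processing notes name STAR, Cufflinks and Cuffdiff and the mm10 build; no source used here gives their versions, the annotation or the strand setting. The deposited table holds raw fragments, which are estimated counts before scaling (3.29% of values not whole), and FPKM values scaled by Cuffdiff, per the file headers. A deposited status word, used here as a mark and coded as other, flags skipped genes, 77 in all, which were left out. It also flags failed FPKM estimates, in 45 other genes, which were kept, also in the work on FPKM. The WT and KO conditions were tied to Ctl and Li-KO by titles and replicate numbers, and 0 columns were left without a sample. Counts were rounded, and genes with too few were removed by filterByExpr of edgeR 4.0.16 (minimum count 10, minimum total 15). Li-KO was compared with Ctl by the two-sided quasi-likelihood test with TMM scaling and a group term. Benjamini-Hochberg adjustment covered 16533 genes, with calls at an adjusted p under 0.05. The SE was the size of the fold change over the square root of F. The fit was tested on simulated data. Alternatives were RLE scaling, no count filter, DESeq2 1.42.0, limma-voom (limma 3.58.1), limma on log2(FPKM + 1) or log2(FPKM + 0.1) with a mean of at least 0.5, the first also without that filter, the replicate block, skipped genes kept, and each library left out; for ratios, CPM in place of FPKM and, chosen after seeing the data, each library left out. The members, lists and naming rule were chosen with earlier results of these data known, and some list genes are not reported here and were left out of the list counts. The rule named all 7 members, Klf15, up to 4 changed genes per list, and the 3 genes most alike (mean of at least 10 CPM, log2(CPM + 0.5)) for changed members with a log2 fold change of at least 1 in size; Pck1, Fkbp5, Got1, Gch1, Pcbd2, Pts, Hpdl, Nr3c1, Foxa1, Creb1, Ppargc1a, the cholangiocyte markers, Asgr2, Psmd9, Pomt2, the carriers that did not pass and the neighbouring genes were chosen after their values were seen. Positions are from GENCODE release M21, and promoters from RefSeq.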

Additional observations from a re-analysis of the deposited data

How the results depend on the processing

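Of the 7 genes, 3 to 6 changed under the 9 alternatives that kept all libraries and 3 to 4 in the 6 fits that left one out. The count over all genes (1986) depended more on the method: DESeq2 gave 3011, limma on unfiltered FPKM gave 808, and the fits without a library gave 432 to 2549, with fewer than 1986 in all but the fit without Li-KO replicate 2. Tat, which was not called, had log2 fold changes of -0.08 without Ctl replicate 1 to 0.93 without Ctl replicate 0; the cause was not tested. Klf15 fell under all 15 alternatives, at -2.44 to -1.91 in the fits without a library. The labels do not say that libraries with the same number belong together. Over all genes tested, the deviations of such libraries from the group means correlated at 0.018, 0.081 and 0.067 for replicates 0, 1 and 2. Pairs with different numbers correlated at -0.113 to 0.037. Li-KO replicates 1 and 2 were closest to their own number, and Li-KO replicate 0 was closer to Ctl replicate 1 (0.028). With the replicate as a block, 5 of the 7 genes (Qdpr added, adjusted p = 0.0499) and 1971 of all genes changed. The 6 ratios to Fah kept their sign in each fit without a library and in CPM.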

Other observations

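The genes beside each of the 7 on its chromosome were read as a description, by a rule chosen after the data were seen: the nearest tested gene on each side and any tested gene that overlaps. Of 16 such genes, 3 changed, where 12.0% of all genes tested did. Setd1b, a histone methyltransferase gene next to Hpd on the side of lower coordinates, fell (log2 fold change -1.30 ± 0.20, edgeR adjusted p = 0.00846), and its call ended with limma on unfiltered FPKM. Wdr66, on the other side of Hpd, did not pass (log2 fold change -0.27 ± 0.32, adjusted p = 0.62). Lap3, a leucine aminopeptidase gene beside Qdpr, rose (log2 fold change 0.58 ± 0.15, adjusted p = 0.039), and its call ended without Li-KO replicate 0 or 1 or Ctl replicate 1 or 2 (highest adjusted p 0.138), and in the 3 fits on FPKM (adjusted p up to 0.095). The other changed gene was Psmd9, which encloses Hpd. The genes beside Gstz1, which are Cipc and Tmed8, had log2 fold changes of -0.13 ± 0.16 and 0.09 ± 0.16.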
